A study of Mus musculus with 18 samples.

Results

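The macrophage identity transcription factors described here are Spi1, Cebpa, Cebpb, Maf, Irf8, Zeb2, Tfec and Mitf, 8 genes taken by symbol out of 54532 in the deposited gene table. Each symbol belonged to 1 gene, and all 8 passed the filter on low counts, as did 14684 genes in all. They were measured by RNA sequencing of polyadenylated RNA from macrophages grown in CSF-1 out of the tibial marrow of mice 2 to 3 months old, and starved of serum before treatment. Both kinds of mice carried loxP-flanked Smad1 alleles (Smad1 fl/fl), and the mice labelled MyS1KO also carried LyzM-Cre, a Cre recombinase expressed from the lysozyme gene Lyz2, which is active in macrophages and neutrophils. The 6 groups were knockout-labelled cells (Smad1 fl/fl + LyzM-Cre) given 10 ng/ml TGF-β1 for 4 h, given 50 ng/ml BMP4 for 4 h or left untreated, and floxed-labelled cells (Smad1 fl/fl without Cre) given the same TGF-β1, the same BMP4 or no ligand. Each group held 3 libraries, numbered 1 to 3. The labels do not say that these came from separate animals or cultures, so p-values measure the spread between these libraries, which may be technical.

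Spi1 encodes PU.1, an ETS factor that opens enhancers in myeloid cells and is needed for macrophages to form at all. The C/EBP factors of Cebpa and Cebpb bind beside it, and so does IRF8, a partner of PU.1 at composite sites that steers progenitors to monocytes and away from neutrophils. Maf encodes c-Maf, a large Maf factor of mature macrophages that restrains their self-renewal. Zeb2 encodes a zinc finger repressor that holds tissue macrophages in their identity, and Tfec and Mitf encode MiT/TFE factors, basic helix-loop-helix leucine zipper proteins that bind E-boxes. Tfec is largely restricted to macrophages and related cells, whereas Mitf is also known from melanocytes, mast cells and osteoclasts. TGF-β1 signals mainly through the receptor Smads of its own branch, and BMP4 mainly through the branch that holds Smad1.

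Total counts ran from 15153296 to 24639163 per library, and the members had 157 to 19081 counts in a library. All 16 macrophage markers were above 1 CPM in at least 1 library, with a summed level of 6301 to 8123 FPKM over the 18 libraries. CPM are counts scaled to a common library total after TMM scaling, and FPKM are the authors' values, which also divide by gene length. Against the labels, Lyz2, the gene that Cre disrupts in this line, stood at 13449 to 17786 CPM in knockout-labelled libraries, against 8118 to 9872 CPM in the floxed-labelled libraries numbered 2 and 3 and 37.6 to 74.3 CPM in those numbered 1. Smad1 stood at 19.5 to 26.8 CPM in knockout-labelled and 22.2 to 31.1 CPM in floxed-labelled libraries, and the labels do not give the deleted part, so its count does not check them. The genotype names are therefore used as labels throughout. The floxed-labelled TGF-β1 changes of the members are given with and without the floxed-labelled libraries numbered 1. So are the Tfec differences between labels within a treatment and the called differences of listed genes between labels. The counts of members called were also recomputed without these libraries. Other floxed-labelled values include them.

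The members lie on 4 chromosomes of the mouse build mm10, and their deposited coordinates were identical in GENCODE release M21. Spi1 (ENSMUSG00000002111) lies at chr2:91082390-91115756, Zeb2 (ENSMUSG00000026872) at chr2:44983632-45117395 and Cebpb (ENSMUSG00000056501) at chr2:167688915-167690418. Cebpa (ENSMUSG00000034957) lies at chr7:35119293-35121928. Maf (ENSMUSG00000055435) at chr8:115682942-115707794 and Irf8 (ENSMUSG00000041515) at chr8:120736358-120756694 share a chromosome, as do Tfec (ENSMUSG00000029553) at chr6:16833373-16898441 and Mitf (ENSMUSG00000035158) at chr6:97807052-98021349. The strand setting of the counting is not given in the sources used here, so reads of a member and of an antisense neighbour may be mixed. This touches Cebpb most, since 312 of the 1504 bases of its only exon, or 20.7%, also belong to an exon of Tmem189 on the opposite strand (chr2:167689511-167689822). Tmem189 stood at 71.8 to 119 CPM over the libraries, up to 120% of the mean CPM of Cebpb. For Zeb2 the share was 3.27%, with its antisense gene Zeb2os at no more than 1.49% of the CPM of Zeb2, and the antisense gene across 5.34% of the exons of Maf had no counts.

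RefSeq promoter windows of build GRCm38.p6, from 250 bases before to 50 bases after an annotated start, matched 6 members in 12 windows. The 3 windows below belong to the member that rose most with TGF-β1 (Cebpa), the other C/EBP member that rose with it (Cebpb) and the member that fell most in knockout-labelled cells (Tfec). They lie at chr7:35119043-35119342 on the plus strand, at chr2:167688665-167688964 on the plus strand and at chr6:16898392-16898691 on the minus strand, and capitals mark TATAAA or GAGGAAG on either strand.
Cebpa: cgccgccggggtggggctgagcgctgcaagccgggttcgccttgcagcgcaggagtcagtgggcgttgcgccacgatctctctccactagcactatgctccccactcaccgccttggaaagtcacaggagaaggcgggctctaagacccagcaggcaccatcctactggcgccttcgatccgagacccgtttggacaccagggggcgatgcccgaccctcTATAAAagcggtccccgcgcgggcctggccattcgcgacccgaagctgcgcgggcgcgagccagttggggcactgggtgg
Cebpb: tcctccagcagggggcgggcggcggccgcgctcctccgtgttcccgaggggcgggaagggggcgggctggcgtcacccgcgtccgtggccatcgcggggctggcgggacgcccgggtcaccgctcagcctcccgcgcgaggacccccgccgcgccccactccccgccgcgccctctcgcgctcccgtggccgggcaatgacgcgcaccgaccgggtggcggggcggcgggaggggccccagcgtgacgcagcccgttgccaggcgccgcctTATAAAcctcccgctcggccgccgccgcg
Tfec: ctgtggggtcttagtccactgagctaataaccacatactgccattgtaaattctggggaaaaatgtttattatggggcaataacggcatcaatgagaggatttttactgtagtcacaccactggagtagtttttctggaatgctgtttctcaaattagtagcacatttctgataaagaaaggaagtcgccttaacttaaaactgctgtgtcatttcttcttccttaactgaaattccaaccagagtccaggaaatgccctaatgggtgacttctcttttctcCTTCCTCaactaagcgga

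The Cebpa and Cebpb windows each held 1 TATAAA, the letters of a TATA box, beginning 30 bases before the annotated start in Cebpa and 21 bases after it in Cebpb. TATAAA occurred on either strand in 13.6% of all 32851 such mouse windows. Their G and C content was 67.3% and 80.7%, against a median of 52.7% over all windows, whereas the Tfec window had 40.3%. The Tfec window held 1 GAGGAAG, a core that PU.1 binds, beginning 32 bases after the start, and this also occurred in 13.6% of all windows. None of these 3 windows held CAGAC, an element that Smads bind, found in 49.6% of windows, nor TTNCGNAA (C/EBP, 2.47%), CANGTG (E-box type, 44.9%) or TGCTGAC (part of a Maf element, 4.67%). Of the other members, 3 of 4 Zeb2 windows held GAGGAAG, 2 of which overlap and share the same match, 1 of 2 Irf8 windows held CAGAC once, and 1 of 3 Mitf windows held it in 3 places. TATAAA was also present in 1 Irf8 window, beginning 31 bases before the start, and in 1 Mitf window, beginning 175 bases before it. All motifs were searched on both strands, and a match describes letters only.

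TGF-β1 divided the members into 3 that rose and a larger set that fell, in the same direction under both genotype labels. In knockout-labelled cells Cebpa, Cebpb and Irf8 rose and Spi1, Maf, Zeb2, Tfec and Mitf fell, which is 8 of 8 called at an edgeR adjusted p under 0.05, where 34.6% of the 14684 genes tested were called (17.6% higher and 17.1% lower). In floxed-labelled cells the same 3 rose and Spi1, Maf, Zeb2 and Tfec fell, 7 of 8, where 33% of genes were called (17% higher and 16% lower). The members were chosen with earlier results of these data known, so these counts are a description and test no enrichment. The CPM of TGF-β1 and untreated libraries did not overlap for 8 members in knockout-labelled cells, where this held for 44.9% of genes, and for 7 members in floxed-labelled cells, where it held for 43.9%. The members' median log2 fold change was -0.19 under both labels, while over all genes tested it was 0.000257 and 0.0042. In bulk RNA, fewer cells of a type and less RNA per cell cannot be told apart.

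Cebpa, the C/EBP factor that drives progenitors into the granulocyte and monocyte lineage, rose more than any other member. It had 609.6, 676 and 613 CPM in the knockout-labelled libraries given TGF-β1, against 187, 204 and 180.3 CPM untreated. In floxed-labelled cells it had 551, 611 and 555 CPM under TGF-β1, against 169, 184 and 203 CPM untreated. Every TGF-β1 library exceeded every untreated one by a wide margin under both labels. The log2 fold change was 1.73 ± 0.07 (SE, edgeR adjusted p = 6.51e-13) in knockout-labelled cells, a 3.32-fold rise, and 1.63 ± 0.07 (SE, edgeR adjusted p = 1.53e-12) in floxed-labelled cells, a 3.09-fold rise.

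Cebpb, the C/EBP factor of inflammatory and alternatively activated macrophages, rose 2.02-fold under each label. It had 152, 138 and 142 CPM with TGF-β1 in knockout-labelled libraries, against 62.2, 74.5 and 77.0 CPM untreated. In floxed-labelled libraries it had 158, 171 and 142 CPM under TGF-β1, against 83.2, 78.5 and 71.2 CPM untreated. The groups did not overlap under either label. The log2 fold change was 1.01 ± 0.08 (SE, edgeR adjusted p = 7.39e-09) in knockout-labelled and 1.02 ± 0.08 (SE, edgeR adjusted p = 5.39e-09) in floxed-labelled cells. Tmem189, whose exon overlaps that of Cebpb on the other strand, rose by 0.40 ± 0.07 on the log2 scale under each label (SE, edgeR adjusted p = 0.000122 and 9.78e-05 in knockout-labelled and floxed-labelled cells). Its part in the Cebpb counts was not tested.

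Irf8 also rose, by a smaller factor than Cebpa or Cebpb. It had 426, 426 and 428 CPM in knockout-labelled libraries given TGF-β1, against 277, 289 and 269.9 CPM untreated. In floxed-labelled libraries it had 399.6, 444 and 377 CPM under TGF-β1, against 248, 307 and 268 CPM untreated. The lowest TGF-β1 library stayed above the highest untreated library in each case. The log2 fold change was 0.61 ± 0.07 (SE, edgeR adjusted p = 5.25e-07) in knockout-labelled and 0.57 ± 0.07 (SE, edgeR adjusted p = 1.36e-06) in floxed-labelled cells.

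**Figure D1:**
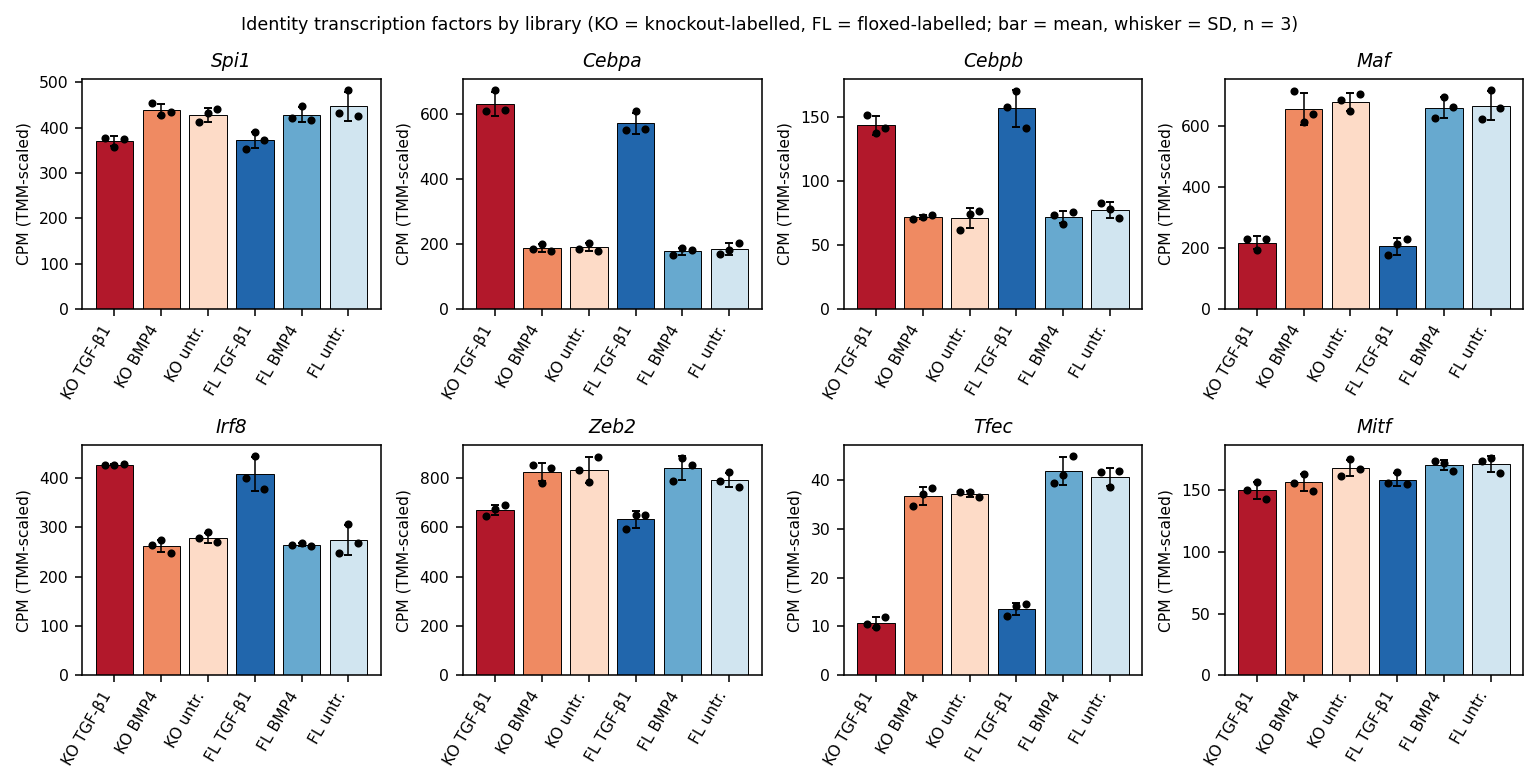
CPM (TMM-scaled, linear axis from 0) of the 8 members in the 6 groups, with points for the libraries 1 to 3 from left to right, bars for means and whiskers for SD (n = 3). Cebpa, Cebpb and Irf8 stand high and Maf and Tfec low in both TGF-β1 groups, and BMP4 bars lie beside the untreated ones.

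Maf, one of the most abundant transcription factors of these cells, fell by a large factor. It had 231, 194 and 231 CPM in knockout-labelled libraries given TGF-β1, against 688, 649 and 705 CPM untreated. In floxed-labelled libraries it had 177, 213 and 229 CPM under TGF-β1, against 626, 719.9 and 659 CPM untreated. No TGF-β1 library came near an untreated one. The log2 fold change was -1.64 ± 0.09 (SE, edgeR adjusted p = 2.62e-11) in knockout-labelled and -1.69 ± 0.09 (SE, edgeR adjusted p = 1.55e-11) in floxed-labelled cells, so that 0.321 and 0.309 of the untreated level remained.

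Tfec, the least abundant member, fell by a similar factor. It had 10.5, 9.9 and 12.0 CPM in knockout-labelled libraries given TGF-β1, against 37.5, 37.6 and 36.4 CPM untreated. In floxed-labelled libraries it had 12.2, 14.2 and 14.5 CPM under TGF-β1, against 41.6, 38.6 and 41.7 CPM untreated. The groups were far apart under both labels, at a depth of at least 157 counts in each library. The log2 fold change was -1.78 ± 0.08 (SE, edgeR adjusted p = 2.71e-12) in knockout-labelled and -1.57 ± 0.08 (SE, edgeR adjusted p = 7.13e-12) in floxed-labelled cells.

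Zeb2 and Spi1 fell by small amounts that were nonetheless larger than the spread between libraries. Zeb2 had 647, 672 and 689 CPM in knockout-labelled libraries given TGF-β1, against 829, 781 and 884 CPM untreated, and 592, 649 and 651 CPM in floxed-labelled libraries given TGF-β1, against 787, 822 and 764 CPM untreated. Its log2 fold change was -0.31 ± 0.06 (SE, edgeR adjusted p = 0.000248) in knockout-labelled and -0.33 ± 0.06 (SE, edgeR adjusted p = 0.000155) in floxed-labelled cells. The groups did not overlap for Zeb2 under either label. Spi1 had 378, 358 and 374 CPM in knockout-labelled libraries given TGF-β1, against 412, 431 and 442 CPM untreated, and 354, 389 and 373 CPM in floxed-labelled libraries given TGF-β1, against 431, 483 and 426 CPM untreated. Its log2 fold change was -0.21 ± 0.05 (SE, edgeR adjusted p = 0.00473) in knockout-labelled and -0.26 ± 0.05 (SE, edgeR adjusted p = 0.000685) in floxed-labelled cells. For Spi1 too, every TGF-β1 library lay below every untreated library of its label.

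Mitf moved least. It had 149.9, 157 and 143 CPM in knockout-labelled libraries given TGF-β1, against 162, 175 and 167 CPM untreated, with no overlap. In floxed-labelled libraries it had 156, 164 and 155 CPM under TGF-β1, against 174, 176 and 164 CPM untreated, where TGF-β1 library 2 lay just above untreated library 3. The log2 fold change was -0.16 ± 0.05 (SE, edgeR adjusted p = 0.016) in knockout-labelled cells and -0.11 ± 0.05 (SE, edgeR adjusted p = 0.102) in floxed-labelled cells. Only the knockout-labelled change was called, and the difference between the labels was -0.05 (95% interval -0.20 to 0.10). With the library number as a replicate block within each label, the floxed-labelled change was called too (edgeR adjusted p = 0.0307). Without knockout-labelled untreated library 2, TGF-β1 library 1 or TGF-β1 library 3 the knockout-labelled call was lost (edgeR adjusted p = 0.0983, 0.0543 and 0.0884).

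The floxed-labelled TGF-β1 changes were much the same without the libraries numbered 1. The rises were then 1.59 for Cebpa, 1.06 for Cebpb and 0.51 for Irf8 on the log2 scale, and the log2 fold changes of the members that fell were -1.64 for Maf, -1.49 for Tfec, -0.29 for Zeb2 and -0.26 for Spi1, all 7 still called (edgeR adjusted p = 5.58e-10 to 0.0079). Mitf stood at -0.09 (edgeR adjusted p = 0.336).

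**Figure D2:**
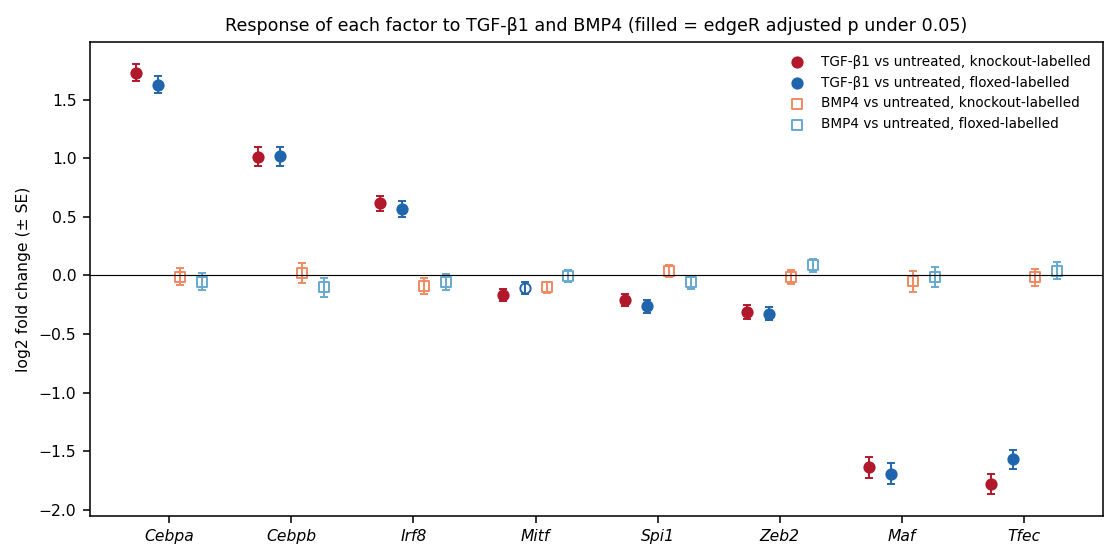
Log2 fold change (± SE) of each member against untreated cells of the same label, with TGF-β1 as circles and BMP4 as squares, and filled symbols where the edgeR adjusted p was under 0.05. With TGF-β1 the members run from 1.73 for Cebpa to -1.78 for Tfec in knockout-labelled cells, while the BMP4 values run from -0.10 to 0.08.

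No member was called for BMP4 under either label, by edgeR or by DESeq2, and none had an unadjusted p under 0.05. Among all genes edgeR called 84, or 0.572%, in knockout-labelled cells and 0, or 0%, in floxed-labelled cells, where 1103 genes had an unadjusted p under 0.05 and DESeq2 called 14. This main model has no block for the library number. Over the alternatives run, the counts over all genes were 2 to 472 in knockout-labelled and 0 to 69 in floxed-labelled cells. With a replicate block within each label still no member was called (smallest edgeR adjusted p = 0.173 and 0.438). Cebpa had 185, 201 and 180.0 CPM with BMP4 in knockout-labelled and 167, 188 and 181 CPM in floxed-labelled libraries. Maf had 714, 613 and 641 CPM with BMP4 in knockout-labelled and 627, 696 and 662 CPM in floxed-labelled libraries. For both genes these values overlapped the untreated ones, unlike those with TGF-β1. Tfec had 34.8, 37.0 and 38.4 CPM with BMP4 in knockout-labelled and 39.4, 41.1 and 44.9 CPM in floxed-labelled libraries, and its log2 fold changes were -0.02 (95% interval -0.17 to 0.14) and 0.04 (95% interval -0.11 to 0.19). Cebpb had 70.9, 71.9 and 73.8 CPM with BMP4 in knockout-labelled and 74.1, 66.8 and 75.8 CPM in floxed-labelled libraries. BMP4 and untreated libraries overlapped for all 8 members under both labels, where groups failed to overlap for 15.7% and 13.2% of genes.

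Irf8 had 264, 273 and 248 CPM with BMP4 in knockout-labelled and 264, 267 and 262 CPM in floxed-labelled libraries. Spi1 had 454, 428 and 435 CPM with BMP4 in knockout-labelled and 422, 447 and 416 CPM in floxed-labelled libraries. Zeb2 had 850.0, 780.2 and 837 CPM with BMP4 in knockout-labelled and 786, 881 and 851 CPM in floxed-labelled libraries. None of these stood apart from its untreated libraries. Mitf had 156, 163 and 149 CPM with BMP4 in knockout-labelled and 174, 172 and 166 CPM in floxed-labelled libraries, and in knockout-labelled cells its log2 fold change of -0.10 was the furthest from 0 (95% interval -0.21 to 0.00, edgeR adjusted p = 0.428). The furthest in floxed-labelled cells was Cebpb at -0.10 (95% interval -0.27 to 0.07, edgeR adjusted p = 0.815). Over the 8 members, the 95% intervals of the BMP4 changes reached no lower than -0.23 and no higher than 0.19 in knockout-labelled cells, and no lower than -0.27 and no higher than 0.21 in floxed-labelled cells.

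No member was called between the genotype labels in any treatment, by edgeR or by DESeq2. In the same comparisons edgeR called 2.39% of genes untreated, 0.388% with TGF-β1 and 0.0272% with BMP4. An unadjusted p under 0.05 was reached by 0 members untreated, 1 with TGF-β1 and 2 with BMP4. Tfec was the member with TGF-β1, at 10.8 ± 1.10 CPM in knockout-labelled and 13.6 ± 1.26 CPM in floxed-labelled cells (SD, n = 3 each). Its log2 difference was -0.34 ± 0.09 (SE, edgeR adjusted p = 0.0948) with TGF-β1, -0.19 ± 0.07 (SE, edgeR adjusted p = 0.528) with BMP4 and -0.13 ± 0.07 (SE, edgeR adjusted p = 0.386) untreated. In each treatment all 3 knockout-labelled libraries lay below all 3 floxed-labelled ones for Tfec, where groups failed to overlap for 19.2%, 13.2% and 20.5% of genes. This pattern was picked out after its values were seen and fails the correction. Same-numbered libraries of a label deviated together between treatments, so the treatments do not repeat the pattern independently. Without the floxed-labelled libraries numbered 1 the differences were -0.41, -0.23 and -0.12. Mitf was the other member with BMP4, at -0.12 ± 0.05 (SE, edgeR adjusted p = 0.545).

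The summed FPKM of the erythroid and platelet markers also separated the labels, at 208 to 296 in knockout-labelled and 299.6 to 359 in floxed-labelled libraries, with 4 of its 7 genes, Hba-a1, Hbb-bs, Klf1 and Gp1bb, under 1 CPM throughout. The monocyte markers summed to 84.6 to 121 FPKM and 117 to 165 FPKM, and the neutrophil markers to 179 to 292 FPKM and 231 to 333 FPKM, in knockout-labelled and floxed-labelled libraries. The dendritic cell markers summed to 251 to 349 FPKM in knockout-labelled and 292 to 431 FPKM in floxed-labelled libraries. The part of these markers in the differences of Tfec and Mitf was not tested. The TGF-β1 response of no member differed between the labels in the test of the difference itself (edgeR adjusted p = 1 for all 8, none with an unadjusted p under 0.05), where 0.00681% of genes were called. The largest such difference was that of Tfec, at -0.21 (95% interval -0.45 to 0.03), and that of Cebpa was 0.10 (95% interval -0.11 to 0.32). For the BMP4 responses the 8 differences lay between -0.10 and 0.12, with none called among the members or over all genes by edgeR (0%), where 839 genes had an unadjusted p under 0.05 and DESeq2 called 13.

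Per gene length, the members spanned a wide range of levels, and TGF-β1 reordered them. In untreated cells the order by mean FPKM was Spi1, Maf, Cebpa, Cebpb, Zeb2, Irf8, Mitf and Tfec under both labels. In knockout-labelled untreated cells the levels were 158 ± 5.29 for Spi1, 81.9 ± 3.35 for Maf, 71.8 ± 4.76 for Cebpa and 47.0 ± 5.15 for Cebpb (FPKM, SD, n = 3). Zeb2 followed at 41.4 ± 2.51, Irf8 at 39.2 ± 1.44, Mitf at 26.9 ± 1.05 and Tfec at 6.59 ± 0.13 (FPKM, SD, n = 3). In floxed-labelled untreated cells Spi1 stood at 165 ± 11.7, Maf at 80.7 ± 5.79, Cebpa at 70.0 ± 6.44 and Cebpb at 51.3 ± 4.01 (FPKM, SD, n = 3). The lower levels there were 39.5 ± 1.48 for Zeb2, 38.7 ± 4.23 for Irf8, 27.5 ± 1.05 for Mitf and 7.23 ± 0.32 for Tfec (FPKM, SD, n = 3). In knockout-labelled untreated cells the libraries of Cebpb and Zeb2, and of Zeb2 and Irf8, overlapped, while in floxed-labelled untreated cells those of Maf and Cebpa, and of Zeb2 and Irf8, did. With TGF-β1, Cebpa came first at 239 ± 13.2 FPKM in knockout-labelled and 215 ± 13.5 FPKM in floxed-labelled cells, above Spi1 at 137 ± 4.38 and 137 ± 7.13 FPKM. Cebpb was next at 95.1 ± 4.84 and 103 ± 9.93 FPKM, and Irf8 at 60.2 ± 0.50 and 57.2 ± 5.02 FPKM (SD, n = 3 each). Zeb2 followed at 33.4 ± 1.15 and 31.3 ± 1.72 FPKM. Maf dropped to 26.4 ± 2.69 and 24.8 ± 3.26 FPKM, where its libraries overlapped those of Mitf at 24.0 ± 1.02 and 25.3 ± 0.93 FPKM. Tfec stayed last at 1.92 ± 0.21 and 2.41 ± 0.23 FPKM. With BMP4 the order was that of untreated cells under both labels, from Spi1 at 162 ± 5.24 FPKM in knockout-labelled and 158 ± 6.12 FPKM in floxed-labelled cells to Tfec at 6.53 ± 0.32 and 7.42 ± 0.49 FPKM, and neighbours overlapped only for Maf and Cebpa in knockout-labelled cells.

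Set among the 845 genes tested that the deposited table annotates as transcription factors, the members were mostly near the top in untreated cells by mean FPKM of the 6 libraries. Spi1 ranked 2, Maf 4, Cebpa 6, Cebpb 17, Zeb2 21, Irf8 23, Mitf 52 and Tfec 255. For TGF-β1, edgeR called 158 of these factors higher and 159 lower in knockout-labelled cells, and 165 higher and 144 lower in floxed-labelled cells. By size of rise Cebpa ranked 18 in knockout-labelled and 23 in floxed-labelled cells, Cebpb 40 and 43, and Irf8 75 and 87. By size of fall Tfec ranked 10 and 14 and Maf 12 and 12, in knockout-labelled and floxed-labelled cells. This comparison group was chosen after the values were seen.

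Relatives did not all move together in the C/EBP, MiT/TFE and interferon regulatory factor families, whereas Spi1, Spic and Spib all fell. Among the C/EBP genes, Cebpd, which is known as an acute-phase factor, fell, with log2 fold changes of -1.67 ± 0.13 and -1.93 ± 0.13 in knockout-labelled and floxed-labelled cells (SE, edgeR adjusted p = 4.48e-09 and 3.27e-10). Cebpg, a C/EBP protein without an activation domain, rose by 0.66 ± 0.06 and 0.59 ± 0.05 (SE, edgeR adjusted p = 1.32e-08 and 5.05e-08). The 5 genes Cebpa, Cebpb, Cebpd, Cebpe and Cebpg summed to 361 ± 9.27 FPKM with TGF-β1 and 148 ± 8.19 FPKM untreated in knockout-labelled cells, and to 345 ± 22.7 and 155 ± 3.75 FPKM in floxed-labelled cells. Cebpa held 66.1% and 62.4% of that sum with TGF-β1, against 48.4% and 45.1% untreated, and Cebpd 1.36% and 1.47%, against 10.5% and 12.6%, in knockout-labelled and floxed-labelled cells. In the MiT/TFE family neither Tfe3 nor Tfeb, regulators of lysosomal genes, was called, with log2 fold changes of -0.02 and -0.10 in knockout-labelled and 0.03 and 0.00 in floxed-labelled cells. Tfec held 3.40% and 4.17% of the family's summed FPKM with TGF-β1, against 10.1% and 11.2% untreated.

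**Figure D3:**
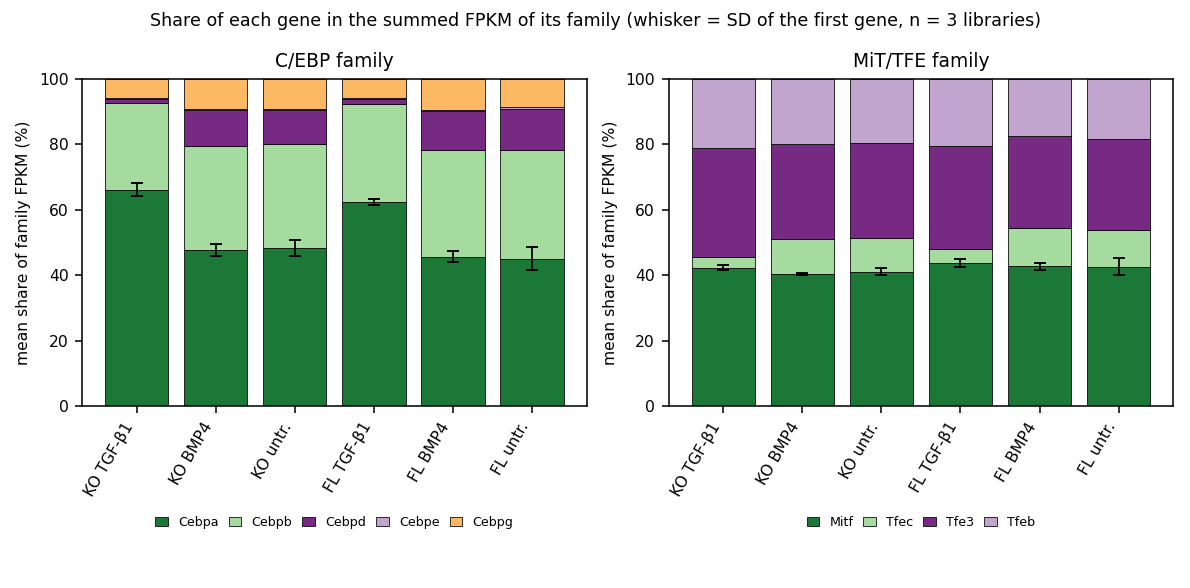
Mean share (%) of each gene in the summed FPKM of the C/EBP and MiT/TFE families in the 6 groups, with whiskers for the SD of the gene drawn at the bottom (n = 3 libraries). Cebpa holds 66.1% and 62.4% of its family with TGF-β1, against 48.4% and 45.1% untreated, in KO and FL cells, and Tfec narrows in the MiT/TFE bars.

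The interferon regulatory factors split as well. Irf4, Irf1 and Irf2 fell where Irf8 rose, with log2 fold changes of -2.29 and -1.80 for Irf4, -0.46 and -0.58 for Irf1, and -0.43 and -0.40 for Irf2, in knockout-labelled and floxed-labelled cells. Irf8 made up 26.1% and 25.2% of the summed FPKM of 8 such factors with TGF-β1, against 17.2% and 16.3% untreated, while the sum was 231 ± 15.3 with TGF-β1 and 228 ± 3.83 untreated in knockout-labelled cells, and 226 ± 12.8 and 238 ± 17.9 in floxed-labelled cells. Spic, an ETS relative of Spi1 known from iron-recycling macrophages, fell, with log2 fold changes of -2.01 ± 0.16 and -2.13 ± 0.16 (SE, edgeR adjusted p = 7.64e-09 and 2.03e-09), to means of 2.57 and 2.30 CPM, against 10.4 and 10.2 CPM untreated. Spib fell too, to means of 0.251 and 0.450 CPM under TGF-β1, against 0.776 and 1.03 CPM untreated, with log2 fold changes of -1.61 ± 0.54 and -1.22 ± 0.45 (SE, edgeR adjusted p = 0.0269 and 0.0425). At these low levels its floxed-labelled libraries overlapped, at 0.557, 0.249 and 0.544 CPM under TGF-β1, against 1.16, 1.46 and 0.479 CPM untreated. Zeb1, the relative of Zeb2, was not called (-0.02 and -0.06). Over the 20 relatives tested of 21 listed, 4 rose and 6 fell in knockout-labelled and 4 rose and 7 fell in floxed-labelled cells (medians -0.05 and -0.07). Over all genes tested 34.6% and 33% were called.

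**Figure D4:**
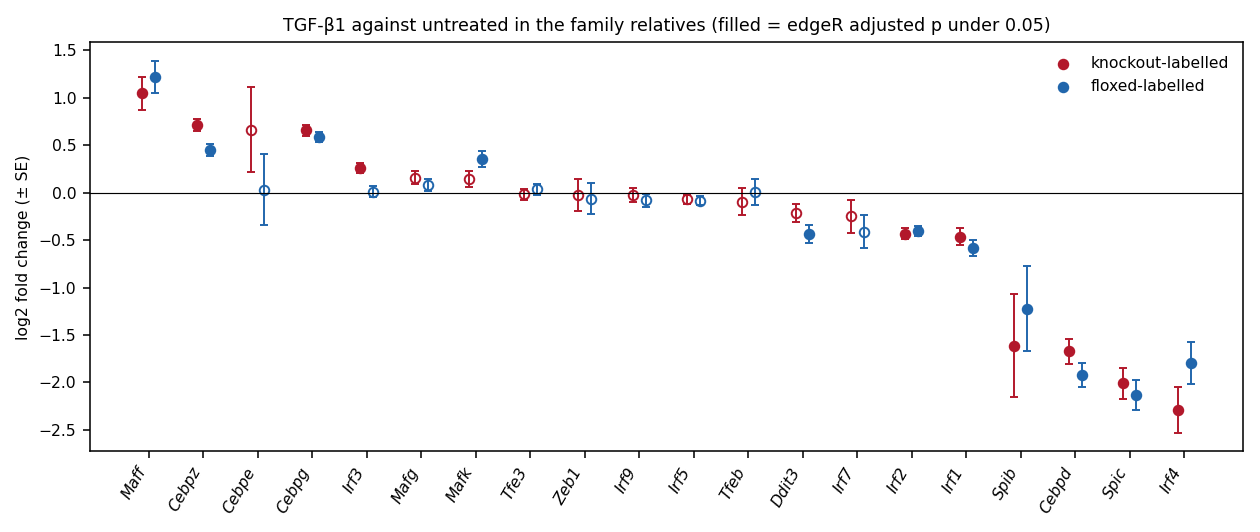
Log2 fold change (± SE) of TGF-β1 against untreated in the 20 family relatives tested, knockout-labelled in red and floxed-labelled in blue, filled where the edgeR adjusted p was under 0.05. Maff lies at the upper end and Cebpd, Spic and Irf4 at the lower end under both labels.

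Genes known as partners, cofactors and targets of the members changed with TGF-β1 in both directions, as did genes at large. Over all genes tested, 34.6% were called in knockout-labelled cells (17.6% higher and 17.1% lower). In floxed-labelled cells 33% were called (17% higher and 16% lower). Of the 30 partners and cofactors tested, 13 rose and 8 fell in knockout-labelled and 14 rose and 6 fell in floxed-labelled cells, with medians of 0.16 and 0.22 on the log2 scale. Junb, an AP-1 subunit, rose by 1.37 and 1.39, and Fos, its partner, by 1.57 and 1.51, while Tet2, a DNA demethylase that PU.1 and C/EBP factors recruit, fell, with log2 fold changes of -0.98 and -0.90 in knockout-labelled and floxed-labelled cells. Id2, an inhibitor of basic helix-loop-helix proteins, rose by 2.33 and 1.67. Of 20 PU.1 target genes, 2 rose and 8 fell in knockout-labelled and 1 rose and 8 fell in floxed-labelled cells (medians -0.14 and -0.15). Tlr4, the endotoxin receptor, fell, with log2 fold changes of -1.27 and -1.15 and so did Cd14, its co-receptor (-1.23 and -1.10), whereas Ncf1, a subunit of the phagocyte oxidase, rose by 1.01 and 0.91.

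Of 16 C/EBP target genes, 3 rose and 4 fell in knockout-labelled and 2 rose and 5 fell in floxed-labelled cells (medians -0.06 and -0.07). Arg1, an arginase of alternatively activated macrophages, rose by 2.55 and 1.77, while the chemokine gene Ccl3 fell, with log2 fold changes of -1.63 and -1.71 and Pparg, a nuclear receptor, did likewise (-1.76 and -1.75), in knockout-labelled and floxed-labelled cells. Arg1 rose from a low level, at 1.78 ± 1.05 CPM in floxed-labelled untreated libraries (SD, n = 3). Of 14 large Maf target genes, 1 rose and 5 fell in knockout-labelled and 1 rose and 4 fell in floxed-labelled cells (medians -0.07 and -0.16). Slc40a1, the iron exporter ferroportin, fell to 39.8 ± 12.7 and 30.7 ± 8.27 CPM under TGF-β1, against 514 ± 79.8 and 381 ± 50.2 CPM untreated, in knockout-labelled and floxed-labelled cells, with log2 fold changes of -3.69 ± 0.23 and -3.63 ± 0.23 (SE, edgeR adjusted p = 1.88e-10 and 2.24e-10). Cd163, a haemoglobin scavenger receptor, fell, with log2 fold changes of -3.20 and -3.29 and Mrc1, the mannose receptor, did likewise (-0.99 and -0.95), whereas Axl, a receptor for apoptotic cells, rose by 0.74 and 0.86.

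Of 15 IRF8 target genes, 5 rose and 3 fell in knockout-labelled and 5 rose and 4 fell in floxed-labelled cells (medians 0.07 and 0.02). Cxcl16, a chemokine and scavenger receptor, rose by 1.16 and 1.13, and Pml, a nuclear body protein, fell, with log2 fold changes of -1.08 and -1.16. Of 25 MiT/TFE target genes, 5 rose and 4 fell in knockout-labelled and 4 rose and 3 fell in floxed-labelled cells (medians 0.03 and -0.03). Ctsd, a lysosomal protease, rose by 0.79 and 0.75, while Flcn, a brake on the MiT/TFE factors, fell, with log2 fold changes of -0.40 and -0.38. Of 6 genes tested that were listed as repressed by ZEB2, Id2 and Cd9 rose and Cebpd fell under both labels (medians 0.84 and 0.73). Of 16 macrophage markers, Mertk rose by 0.51 and 0.47 and Cd14, Cd163 and Mrc1 fell under both labels (medians 0.07 and -0.01). These lists share genes, and their medians stand beside all-gene medians of 0.000257 and 0.0042. Their counts stand beside 34.6% and 33% of all genes called in knockout-labelled and floxed-labelled cells. The MiT/TFE target counts lay near that share and the macrophage marker counts below it.

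Markers of other cell types were summed in each library, and the share called with TGF-β1 differed between the lists. Of the genes tested, 2 of 11 neutrophil, 0 of 9 monocyte, 4 of 12 dendritic cell and 2 of 7 osteoclast markers were called in knockout-labelled cells, and 1, 1, 5 and 2 of them in floxed-labelled cells, where 34.6% and 33% of all genes were called. The dendritic cell and osteoclast counts thus lay near the share over all genes. The lymphoid markers summed to 23.1 to 34.4 FPKM with TGF-β1 and 10.1 to 18.7 FPKM untreated over both labels, of which 9 of 10 were under 1 CPM and Il7r rose by 0.89 and 1.00 on the log2 scale. The mast cell and basophil markers summed to 0.476 to 1.13 FPKM with TGF-β1 and 0.327 to 0.917 FPKM untreated, with 7 of 9 under 1 CPM in every library. Gata2 rose, though its floxed-labelled untreated level was only 0.164 ± 0.199 CPM (SD, n = 3). Fibroblast and stromal markers stayed at or under 1.88 FPKM in sum. The neutrophil markers summed to 198 to 333 and 192 to 293 FPKM, the monocyte markers to 84.6 to 156 and 94.1 to 165 FPKM and the dendritic cell markers to 251 to 361 and 279 to 431 FPKM, with TGF-β1 and untreated. The erythroid and platelet markers, none of which was called, summed to 255 to 296 FPKM with TGF-β1 and 209 to 283 FPKM untreated in knockout-labelled cells, and to 345.7 to 359 FPKM with TGF-β1 and 304 to 345.3 FPKM untreated in floxed-labelled cells, where they just failed to overlap. The osteoclast markers summed to 28.3 to 32.2 FPKM with TGF-β1 and 32.7 to 37.0 FPKM untreated in knockout-labelled cells, and to 33.4 to 34.9 FPKM with TGF-β1 and 35.5 to 38.5 FPKM untreated in floxed-labelled cells. Every TGF-β1 library thus lay below every untreated library of its label in this sum, with 3 of the 10 listed genes, Ocstamp, Calcr and Oscar, under 1 CPM. Of the 7 osteoclast markers tested, 0 were called higher and 2 lower in knockout-labelled cells. In floxed-labelled cells 1 was called higher and 1 lower, so the sum does not speak for each gene. Single genes failed to overlap in 44.9% and 43.9% of cases under the 2 labels. The part of all these markers in the changes of the members was not tested.

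With BMP4, 3 listed genes outside the members were called, and these calls were in knockout-labelled cells. Id2 rose by 0.60 and Id3, another helix-loop-helix inhibitor, by 3.66 on the log2 scale (edgeR adjusted p = 0.00122 and 0.00509). For Id2 the floxed-labelled log2 fold change was 0.07 (edgeR adjusted p = 0.853), at 22.1 CPM with BMP4 and 20.9 CPM untreated. The difference between the BMP4 responses of Id2 was not called. In floxed-labelled cells Id3 stood at 7.19 ± 4.67 CPM with BMP4 and 1.11 ± 0.33 CPM untreated (SD, n = 3 each), with a log2 fold change of 2.68 that was not called (edgeR adjusted p = 0.239). The difference between its BMP4 responses was 0.98 ± 0.85 and not called either (SE, edgeR adjusted p = 0.987). Both values include the floxed-labelled libraries numbered 1. Without these in the fit, the knockout-labelled rise of Id3 was again 3.66 and still called (edgeR adjusted p = 7.41e-07). Leaving them out thus changed its adjusted p and not its call. Whether Id3 responds under 1 label only is not settled here, since the difference between its responses was not called. Crebbp, a histone acetyltransferase, fell by 0.24 (edgeR adjusted p = 0.0412). Between the labels, Cebpz, Cst3, Tyrobp and Itgax were lower and Crebbp higher in knockout-labelled untreated cells, and Id2 was higher and Cd14 and Cst3 lower in knockout-labelled cells given TGF-β1. Id2 was also the listed gene whose TGF-β1 response differed between the labels, by 0.65 on the log2 scale (edgeR adjusted p = 0.0433). Without the floxed-labelled libraries numbered 1, none of the differences between labels was called (edgeR adjusted p = 0.052 to 0.131 for the 8 differences and 1 for the response of Id2), with fewer libraries in the fit and the same directions. Itgax then stood at -1.02, against -0.81 with all libraries, Cd14 at -0.47, against -0.42, and the response of Id2 at 0.56, against 0.65, on the log2 scale. The change of Crebbp with BMP4, a comparison that holds no floxed-labelled library, also stayed at -0.24 (edgeR adjusted p = 0.063).

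For the 7 members called under both labels, the 3 genes with the closest pattern over the 6 groups were taken from 8402 genes, by the root mean square difference in centred log2 CPM. Those closest to Cebpa were H6pd, Il17ra and Skil, at 0.05 each, and those closest to Cebpb were Ntpcr, Osbpl3 and Gsdme, at 0.04 to 0.05. Skil encodes SnoN, a co-repressor of Smad complexes, and rose by 1.68 and 1.75 on the log2 scale in knockout-labelled and floxed-labelled cells. Slc46a3 and Fnbp1l were among those closest to Maf, at 0.04 and 0.05, and closest to Tfec were Mcoln2, an endolysosomal channel gene, Slc30a1 and Kctd12, at 0.07 to 0.09. Few genes were this close to these 4 members, since 0.214%, 0.905%, 0.19% and 0.0714% of the pool lay within 0.1 of Cebpa, Cebpb, Maf and Tfec. Irf8 had Rassf2, Vav1 and Ifrd1 at 0.02 to 0.03, with 3.51% of the pool within 0.1. Spi1 had Rnf166, Cox15 and Washc1 and Zeb2 had Ppp2r5a, Dnajc13 and Cltc, all at 0.01 to 0.02, but 23.6% and 13% of the pool lay within 0.1 of these small changes. The points are 6 group means that share libraries with the members, so this likeness is a description.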

How the data were processed

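RNA of 18 libraries in 6 groups of 3 was analysed. Per the submitters' processing notes, reads were handled with TopHat2 2.0.9, HTSeq 0.6.1 and Cufflinks 2.1.1 on mm10 (GRCm38.p6); the strand setting is not given in the sources used here. The deposited counts per gene were used unchanged for all tests, the deposited FPKM served to compare levels between genes, and the gene length in the deposited table (another column of it) gave the lengths behind FPKM. A further 78 columns of per-sample values were not used.

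In R 4.3.3 with edgeR 4.0.16, counts were TMM-scaled (factors 0.978 to 1.02) and filtered with filterByExpr, which left 14684 genes. One quasi-likelihood model with a mean per group was fitted over all 18 libraries (12 residual degrees of freedom, biological coefficient of variation 8.86%), and p-values are two-sided with Benjamini-Hochberg adjustment over all genes, called under 0.05. No library repeats another of its group (chi-square over degrees of freedom 3.451 to 25.7 for their counts). The model was tested on simulated data. Alternatives were other scalings and filters, DESeq2 1.42.0, limma 3.58.1 on log2(FPKM + 1) or log2(FPKM + 0.1), replicate blocks, fewer groups and libraries left out. Within a label, same-numbered libraries of the treatments compared deviated together (correlations 0.182 to 0.46), so numbers pair them there. Between labels they did not (-0.205 to 0.0284). The main model does not use this pairing, which only the replicate blocks do.

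The members and gene lists were chosen with earlier results of these data known. Besides the members, the text names called list genes (up to 3 a direction), family relatives and the genes most like a member (mean of at least 10 CPM). Some genes of the lists are not reported here.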

Additional observations from a re-analysis of the deposited data

How the results depend on the processing

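The number of members called was recomputed under every alternative. For TGF-β1 it was 7 or 8 in knockout-labelled and 7 or 8 in floxed-labelled cells, leave-one-out fits included, and in the other 7 comparisons it was 0 under every alternative run. Of the member values printed, 16 TGF-β1 changes kept their direction throughout, and Mitf alone changed sides of the threshold. Its knockout-labelled change lost its call with no low-count filter (-0.14, adjusted p = 0.14) and without 3 single libraries, with a range of -0.19 to -0.12 over libraries left out. Its floxed-labelled change gained a call under total count scaling (-0.14, adjusted p = 0.0265) and without untreated library 3 or TGF-β1 library 2 (both -0.15, adjusted p = 0.0432 and 0.0466). With the library number as a replicate block it gained one too, over all groups (-0.11, adjusted p = 0.0463) or within each label (-0.11, adjusted p = 0.0307), and the block changed no other call of a member. The smallest adjusted p of the Tfec difference between labels with TGF-β1 was 0.05, with no low-count filter. Scalings moved the all-gene median by at most 0.03 on the log2 scale. On log2(FPKM + 1), which understates low genes, the fall of Tfec was -1.38 and -1.27.

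Counts over all genes moved more. Over the alternatives edgeR, DESeq2 or limma called 2 to 472 genes for BMP4 in knockout-labelled cells (84 in the main model) and 0 to 69 in floxed-labelled cells (0), the block within labels giving 472 and 53. Between labels they called 27 to 817 (351), 0 to 394 (57) and 0 to 287 (4) genes untreated, with TGF-β1 and with BMP4. For the differences of responses they called 0 to 8 (1) and 0 to 48 (0). The causes were not tested. Depth limits Tfec most, with 157 counts in its lowest library.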

Other observations

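The spread between libraries differed among the members. The coefficient of variation of CPM within a group had a median over the 6 groups of 3.73% for Spi1 and 3.84% for Mitf, and of 7.55% for Maf and 7.21% for Cebpb. Irf8 had both the tightest group, at 0.352% in knockout-labelled cells given TGF-β1, and a spread of 10.9% in floxed-labelled untreated cells.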
